A study of Mus musculus with 12 samples.

Results

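Iron metabolism genes whose mRNAs carry an iron-responsive element (IRE), together with the proteins that read the element and the carrier of iron in serum, were followed through ribosome profiling, RNA-Seq and RiboTag immunoprecipitation (IP) of the adult mouse brain. The genes were chosen by name for the biology of the IRE, though with earlier results of these data known. They are 8 of the 20504 genes in the table of counts on coding sequence (CDS). Fth1 and Ftl1, the heavy and light subunits of the iron store ferritin, and Slc40a1, the iron exporter ferroportin, carry the element in the 5′ UTR. Tfrc, the transferrin receptor, and Slc11a2, the divalent metal transporter DMT1, carry it in the 3′ UTR. Aco1 and Ireb2 encode the iron regulatory proteins IRP1 and IRP2, and Trf encodes transferrin.

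An IRE is a short hairpin that the iron regulatory proteins bind when iron is scarce. Bound in a 5′ UTR, they keep the small ribosomal subunit off the mRNA, so that ferritin and ferroportin are made only sparingly. Bound in a 3′ UTR, they shield the Tfrc mRNA from degradation, so that more receptor is made. In the brain, iron crosses the endothelium by way of the transferrin receptor, oligodendrocytes are rich in ferritin and make transferrin, and neurons take iron up with the receptor and DMT1. Splice forms of Slc40a1 and Slc11a2 without an IRE are known, and counts per gene do not separate them.

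The 12 libraries came from 6 adult mice that carried Camk2a-cre and the RiboTag allele, which puts an HA tag on the ribosomal protein Rpl22 where Cre is active. The Camk2a promoter drives Cre mainly in excitatory neurons of the forebrain, so that the IP samples these cells, while all other libraries hold RNA of every cell type in the tissue. Mice A and B received vehicle (the labels write Untreated), and mice C and D received a single gavage of 100 mg/kg AZD-8055, which blocks the kinase mTOR at its ATP site, 1 h before sacrifice. From the frontal lobe of each of these 4 mice, 1 library of ribosome footprints and 1 library of poly(A)-selected RNA were made. Mice E and F were untreated, and each gave an input RNA-Seq library and an HA-IP RNA-Seq library. Each group thus held 2 mice. Footprint libraries held between 3503873 and 9259938 counts on CDS and RNA-Seq libraries between 9309496 and 15585831. Between the libraries of a group, chi-square over its degrees of freedom ranged from 2.61 to 9.53, so no library was a copy of another.

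Some facts of the whole set bear on the genes below. After AZD-8055, 71 of 75 tested ribosomal protein genes, the classical mRNAs under the control of mTOR, fell in translation efficiency (TE, footprints per RNA), with a median log2 change of −0.90. Excitatory neuron markers summed to 4830 to 5176 CPM (CDS counts scaled to a common library total) in the inputs and to 6808 to 7372 in the IP libraries. Choroid plexus markers stood apart in mouse B, at 1079 CPM in RNA-Seq and 1254 in footprints, against 37.8 to 118 in the libraries of mice A, C and D. Most of the sum in mouse B was the marker Ttr, at 1013 CPM in RNA-Seq and 1167 in footprints.

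The reference used here holds, for each gene, sequence from 250 bases before to 50 bases after the annotated start, from RefSeq on GRCm38.p6. Of the 8 genes 5 had an entry, with 7 windows. A script searched the transcribed strand for the IRE, written as a bulged C, a stem of 5 pairs with G-U pairs allowed, and the loop CAGTGN. None of the 7 windows held it, and 26 of all 32851 windows did (0.0791%). The windows reach only 50 bases into the transcript and hold no 3′ UTR, so the absence of a match says nothing about the elements themselves, and none is printed.

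**Figure D1:**
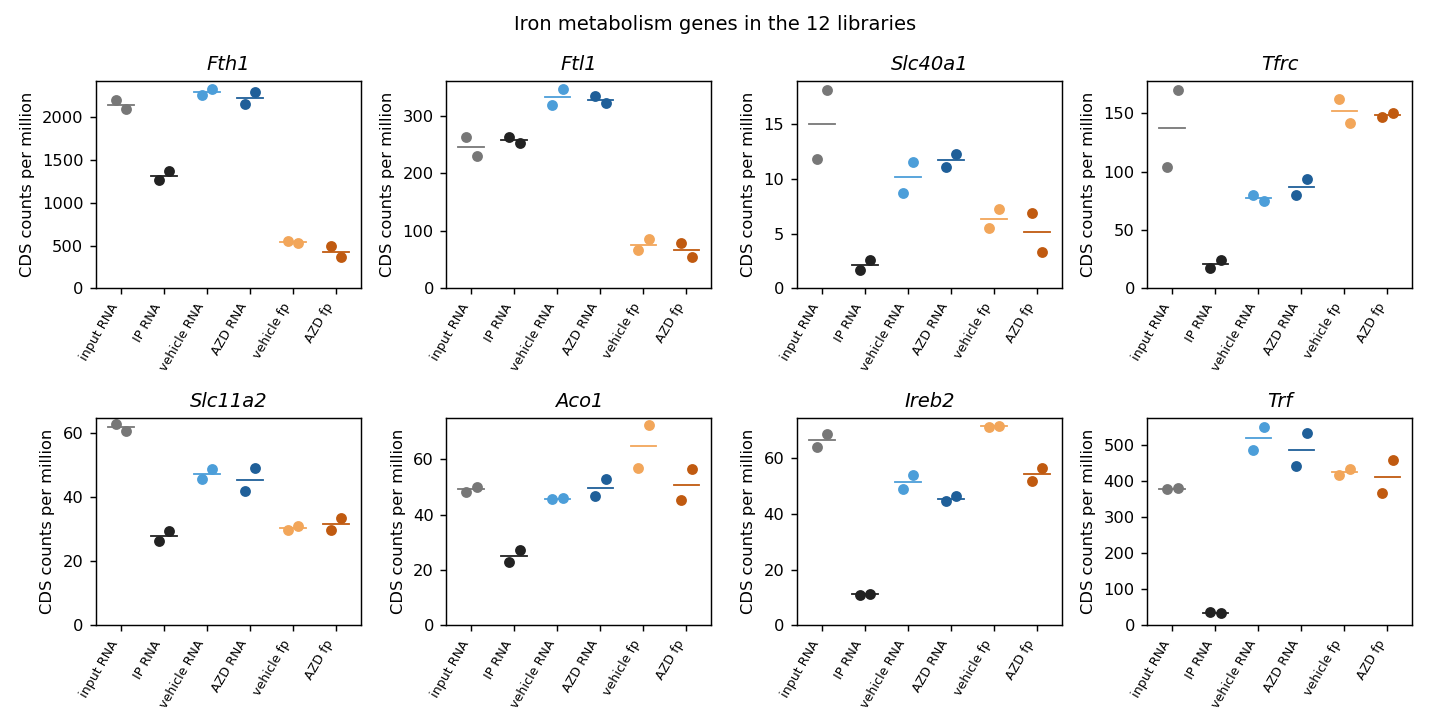
CDS counts in CPM (linear axes that start at 0 and differ between genes) of the 8 genes in the 12 libraries, with 1 point per mouse and a bar at the mean of each group of 2. Footprints (fp) of Fth1 and Ftl1 lie far below their RNA, those of Tfrc lie above the RNA of the same mice, and the IP libraries lie lowest for Slc40a1, Tfrc, Slc11a2, Aco1, Ireb2 and Trf.

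The ferritin mRNAs were abundant and had few footprint counts for their RNA counts. Fth1 (chr19:9980600-9985111 on mm10, the build given by the submitters) had 2263 CPM in the RNA of mouse A and 2328 in that of mouse B, against 556 and 536 CPM in the footprints of the same brains. Both footprint values lay below both RNA values by a wide margin. The log2 TE, computed from counts over DESeq2 size factors, was −1.90 in mouse A and −2.05 in mouse B, or 3.93-fold fewer footprints than RNA after scaling. Only 3.66% of the 10882 genes with a TE lay lower.

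Ftl1 (chr7:45457944-45459886), the light subunit that helps mineral form inside the shell, followed Fth1 closely. Its RNA stood at 319 and 346 CPM in mice A and B and its footprints at 67.2 and 85.5 CPM. The log2 TE was −2.12 and −1.95, at the 3.34 percentile. The values of both ferritins overlapped between the mice, so neither subunit could be called the less translated one. Across all genes the 5th percentile of log2 TE was −1.76 and the median 0.016, while log2 TE differed between the vehicle mice with an SD of 0.28.

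Slc40a1 (chr1:45908070-45926532) is the only known exporter of iron from cells. It was scarce, with 8.73 and 11.5 CPM of RNA in mice A and B and 5.51 and 7.25 CPM of footprints, which rested on 51 and 33 footprint counts. Its log2 TE of −0.54 and −0.60 was below the median of all genes but far above the ferritins, at the 26.9 percentile. Among the 5′ IRE mRNAs, ferroportin thus stood apart from both ferritin subunits.

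Tfrc (chr16:32608896-32632794) was on the opposite side. The receptor, which brings iron-loaded transferrin into the cell, had 79.7 and 74.5 CPM of RNA in mice A and B and 162 and 141 CPM of footprints. Both footprint values exceeded both RNA values. The log2 TE was 1.15 and 0.99, so that 89.3% of genes lay lower.

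Slc11a2 (chr15:100387898-100424209), which moves ferrous iron out of the endosome, did not share this position. Its RNA was 45.7 and 48.6 CPM and its footprints 29.6 and 30.8 CPM in mice A and B, and the log2 TE was −0.50 and −0.59, at the 27.6 percentile. The 3′ IRE mRNAs therefore lay on both sides of the median.

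Both iron regulatory proteins lay above the median of all genes. Aco1 (chr4:40143265-40199009) encodes a protein that is a cytosolic aconitase when it holds an iron-sulfur cluster and IRP1 when it does not, and it had 45.4 and 46.0 CPM of RNA and 56.7 and 72.5 CPM of footprints in mice A and B. Its log2 TE was 0.45 and 0.73, at the 75.3 percentile. Ireb2 (chr9:54862658-54912534), whose product IRP2 is degraded when iron is plentiful, had 49.0 and 54.2 CPM of RNA, 71.5 and 71.6 CPM of footprints and a log2 TE of 0.67 and 0.47, at the 74.8 percentile. The values of Aco1 and Ireb2 interleaved between the mice.

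Trf (chr9:103208876-103230286) had 487 and 549 CPM of RNA and 416 and 433 CPM of footprints in mice A and B. The log2 TE of transferrin was −0.10 and −0.28, near the middle of all genes at the 41.3 percentile. Choroid plexus also makes transferrin, and mouse B, in which its markers stood apart, had the highest Trf RNA of the 6 whole-tissue libraries. Mouse D was close to it, with 533 CPM of Trf RNA, though its choroid plexus markers summed to only 51.6 CPM in RNA-Seq. The part of choroid plexus in this level was not tested.

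In edgeR's quasi-likelihood test of footprints against RNA in mice A and B, 6 of the 8 genes passed an adjusted p of 0.05, 3 higher and 3 lower. Of all 11797 genes tested 73.8% passed, 37.1% higher and 36.7% lower, so that passing is no mark of these genes. The size of the difference was largest for the ferritins and Tfrc among the 8 genes. Fth1 was lower by a log2 value of −1.91 (SE 0.10, adjusted p = 1.66e-10), Ftl1 by −1.99 (SE 0.13, adjusted p = 1.27e-09), and Tfrc was higher by 1.14 (SE 0.091, adjusted p = 1.65e-08). These were the 3 members past a 2-fold difference. Aco1 and Ireb2 were each higher by 0.63 (adjusted p = 0.000212 and 1.25e-05), and Slc11a2 was lower with −0.49 (adjusted p = 0.00103). Slc40a1 at −0.55 (SE 0.26, adjusted p = 0.0715) and Trf at −0.13 (SE 0.098, adjusted p = 0.238) did not pass. Scaling by total counts moved all values by −0.16, after which Slc40a1 (adjusted p = 0.026) and Trf (adjusted p = 0.020) passed too, and the split over all genes became 3609 higher against 5090 lower. With genes of at least 10 counts admitted, Slc40a1 passed as well (−0.61, adjusted p = 0.0489).

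The distance between an extreme 5′ and an extreme 3′ IRE mRNA was stable across animals. Within 1 mouse, the TE of Tfrc exceeded that of Fth1 by log2 values of 3.05 and 3.04 in the vehicle mice and 3.00 and 3.35 in the AZD-8055 mice, that is by 8.02-fold to 10.2-fold. The ratio needs no scaling between libraries, since each gene's footprints and RNA come from the same pair of libraries. The classes as wholes lay closer together in vehicle mice. The lower of the 3′ IRE mRNAs, Slc11a2, lay above the highest 5′ IRE mRNA, Slc40a1, by 0.038 in mouse A and 0.0079 in mouse B, less than the SD between these mice for either gene (0.066 and 0.044). In the AZD-8055 mice this gap was 0.21 (mouse C) and 1.32 (mouse D), the latter with 16 footprint counts of Slc40a1. In order of mean log2 TE in vehicle mice, Ftl1 (−2.03 ± 0.12, SD, n = 2) and Fth1 (−1.97 ± 0.11) came first and did not differ beyond their spread. They were followed by Slc40a1 (−0.57 ± 0.044) and Slc11a2 (−0.55 ± 0.066), which did not differ either, then Trf (−0.19 ± 0.12), then Ireb2 (0.57 ± 0.14) and Aco1 (0.59 ± 0.20), again within their spread, and last Tfrc (1.07 ± 0.11). With 3 and 2 genes, the classes were described and not tested.

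**Figure D2:**
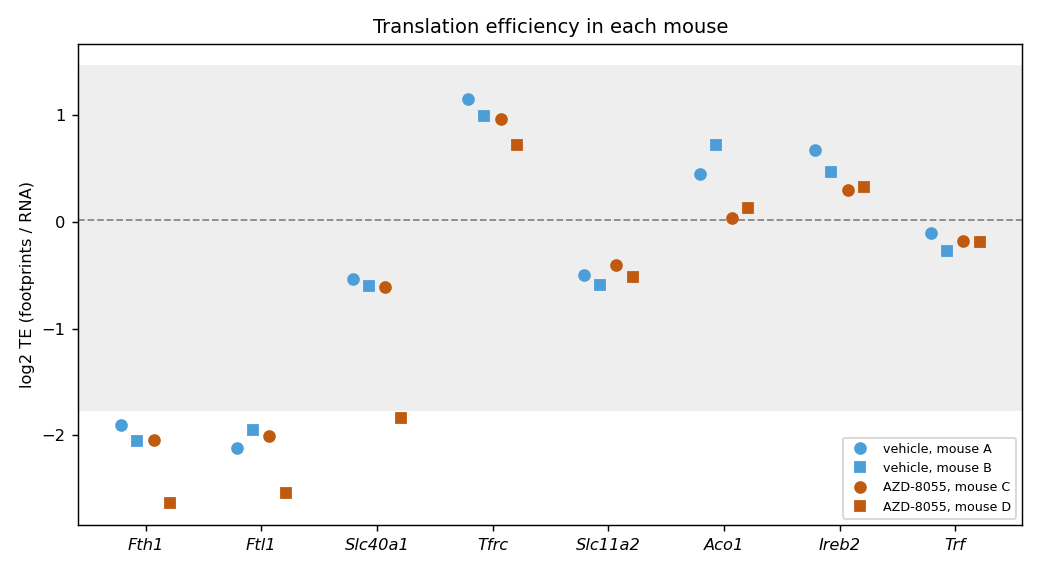
Log2 TE (normalized footprint count over normalized RNA-Seq count of the same brain) of each gene in the 4 mice, blue for vehicle and orange for AZD-8055. The dashed line is the median of all genes in vehicle mice (0.016) and the grey band runs from −1.76 to 1.46, with 5% of genes beyond each end. The ferritins lie below the band in every mouse, and Slc40a1 in mouse D stands apart from the other mice.

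The ferritin counts are less certain than the others in 1 respect. The reference lists 3 pseudogenes named after Ftl1 and Ftl2 and 2 named after Fth, none of which has a row in the count tables, and only uniquely placed reads were counted. The part of such copies in the ferritin values, their low TE included, was not tested.

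In AZD-8055 mice the ferritins again had the lowest and Tfrc the highest log2 TE of the 8 genes. Fth1 had 2161 and 2304 CPM of RNA in mice C and D and 495 and 363 CPM of footprints, and its log2 TE was −2.04 and −2.63. For Ftl1 the log2 TE was −2.01 and −2.54, and for Tfrc 0.96 and 0.72. The ferritins were lower in mouse D than in mouse C by more than the vehicle mice differed from each other. Slc40a1 had a log2 TE of −0.61 in mouse C and −1.84 in mouse D, from 24 and 16 footprint counts, too few for the threshold of 75 counts over a pair of mice.

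In the edgeR test of TE within the AZD-8055 mice, 6 of 8 genes passed, 2 higher and 4 lower, against 70.5% of all genes, 35.2% higher and 35.3% lower. Fth1 (−2.26, adjusted p = 3.86e-11), Ftl1 (−2.20, adjusted p = 8.6e-10) and Tfrc (0.90, adjusted p = 4.15e-07) kept their side. Slc40a1 (−1.13, adjusted p = 0.00333), Slc11a2 (−0.39, adjusted p = 0.00842) and Ireb2 (0.38, adjusted p = 0.00298) passed as well, but not without mouse D. Then they gave −0.57, −0.36 and 0.34, with adjusted p of 0.219, 0.0858 and 0.0632. Aco1 (0.16, adjusted p = 0.273) and Trf (−0.12, adjusted p = 0.310) did not pass.

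Whether inhibition of mTOR changed the translation of these mRNAs was asked by the interaction of treatment and library kind. None of the 8 genes passed in edgeR, where 102 of 11797 genes did (0.865%), and none passed in DESeq2, which gave Slc40a1 no adjusted p. At an unadjusted p under 0.05 there were 2 members, both lower, against 6.76% of all genes. Aco1 had a log2 change in TE of −0.47 (SE 0.18, adjusted p = 0.544) and Fth1 one of −0.34 (SE 0.14, adjusted p = 0.623). With mouse C left out, Fth1 passed (−0.63, adjusted p = 0.0149), and with mouse D left out its change was −0.081, so the value for Fth1 depended on which treated mouse was in the fit.

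In 4 of the 8 genes the TE of both vehicle mice lay above that of both AZD-8055 mice, where 20.9% of all genes did so. For Aco1 the log2 TE was 0.45 and 0.73 in vehicle mice and 0.034 and 0.13 in AZD-8055 mice. For Ireb2 it was 0.67 and 0.47 against 0.30 and 0.32, and for Tfrc 1.15 and 0.99 against 0.96 and 0.72. Slc40a1 also did not overlap, but in mouse C both Tfrc and Slc40a1 lay only just below the lower vehicle mouse, mouse B. The values of Fth1, Ftl1, Slc11a2 and Trf overlapped between the treatments. The remaining changes in TE were −0.22 for Ftl1, −0.58 for Slc40a1, −0.25 for Tfrc and Ireb2, 0.096 for Slc11a2 and 0.016 for Trf, with adjusted p between 0.760 and 0.994. The median over the 8 genes was −0.25, and that of all genes −0.0088.

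RNA gave no call among the 8 genes after the hour of treatment. None passed the edgeR test, none had an unadjusted p under 0.05 (8.24% of all genes had) and none passed in DESeq2, while 18 of 12182 genes passed in edgeR (0.148%). The largest log2 changes were those of Slc40a1 (0.21, SE 0.18, adjusted p = 0.805) and Tfrc (0.18, SE 0.088, adjusted p = 0.651). The Tfrc mRNA, which the iron regulatory proteins protect, thus had 79.7 and 93.5 CPM in AZD-8055 mice against 79.7 and 74.5 in vehicle mice. Ireb2 changed by −0.17 (SE 0.092, adjusted p = 0.677), from 49.0 and 54.2 CPM to 44.8 and 46.4. Fth1, Ftl1, Slc11a2 and Trf each differed by less than 0.1 in either direction, and Aco1 by 0.13 (SE 0.095).

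Footprints gave no call among the 7 genes tested in edgeR either, against 108 of 10695 genes (1.01%), and none in DESeq2, which gave Slc11a2 no adjusted p. Slc40a1 was too scarce, with 51, 33, 24 and 16 footprint counts in mice A to D, and it was tested only with genes of at least 10 counts admitted (−0.35, adjusted p = 0.811). At an unadjusted p under 0.05 there were 3 members, all lower, beside 12.8% of all genes. Ireb2 had 71.5 and 71.6 CPM of footprints in vehicle mice and 51.9 and 56.7 in AZD-8055 mice, a log2 change of −0.40 (SE 0.10, adjusted p = 0.136). Fth1 changed by −0.36 (SE 0.12, adjusted p = 0.280), from 556 and 536 CPM to 495 and 363. Aco1 changed by −0.33 (SE 0.14, adjusted p = 0.384), with 56.7 and 72.5 CPM against 45.1 and 56.3. In these 3 of the 7 genes both vehicle mice lay above both AZD-8055 mice, as they did in 21.6% of all genes tested.

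Which members passed on footprints depended on which treated mouse was in the fit. For Ireb2, as given above, both treated mice lay below both vehicle mice. Without mouse C, Fth1 (−0.61, adjusted p = 3.4e-10) and Ftl1 (−0.50, adjusted p = 0.00378) passed, and 837 genes passed in all. Without mouse D, Aco1 (−0.49, adjusted p = 0.0379) and Ireb2 (−0.46, adjusted p = 0.0372) passed, while Fth1 was at −0.14 (adjusted p = 0.595) and 265 genes passed in all. With 1 treated mouse the test assumes that it varies as the vehicle mice do. The ferritin footprints were thus lowest in mouse D, at 363 CPM for Fth1 and 54.0 for Ftl1, and Aco1 and Trf were lowest in mouse C, at 45.1 and 366 CPM.

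**Figure D3:**
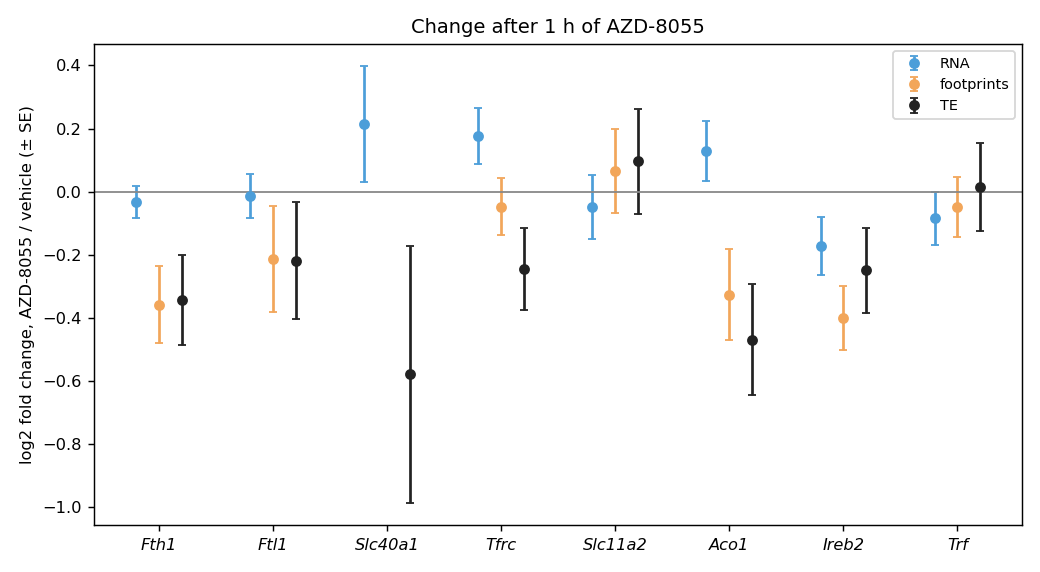
Log2 fold change, AZD-8055 over vehicle, of RNA, footprints and TE, with bars of 1 SE from the edgeR fits (2 mice per group). None of the 8 genes passed an adjusted p of 0.05 in any of the measures, and Slc40a1 has no footprint value because its counts were too low. Aco1 and Fth1 have TE changes of −0.47 and −0.34.

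Across RNA-Seq libraries of whole tissue, levels of some of the 8 genes were closer between animals than others. Over the 6 such libraries (mice A to F, without IP), Fth1 ranged from 2094 to 2328 CPM and Aco1 from 45.4 to 52.7. Tfrc ranged widest of the 8 genes in proportion to its level, from 74.5 to 170 CPM with a median of 86.6, and both inputs, at 104 in mouse E and 170 in mouse F, lay above all 4 libraries of mice A to D. Ireb2 and Slc11a2 were also highest in both inputs, and Ftl1 and Trf lowest there. The inputs came from other animals than the libraries of mice A to D, and from samples not matched to ribosome profiling. A difference between animals and one between these sets of libraries cannot be told apart.

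The RiboTag IP asks which of these mRNAs were on ribosomes of Camk2a-expressing neurons. In CDS counts, 7 of the 8 genes were lower in IP than in input and Ftl1 was higher. The falls were large for Trf, Slc40a1, Tfrc and Ireb2 and small for Slc11a2, Aco1 and Fth1. All 8 genes passed in edgeR, where 75.5% of 12211 genes did, 36.5% higher and 39.0% lower. The median over the 8 genes was −1.43, against −0.067 for all genes. Input and IP of a mouse came from the same lysate, so cell numbers did not differ between them. How far a lower value in IP came from mRNA of other cells, or from mRNA off the ribosomes of these neurons, was not tested.

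Trf fell most. It had 376 and 380 CPM in inputs E and F and 37.4 and 32.8 CPM after IP, a log2 change of −2.99 (SE 0.13, adjusted p = 2.18e-06). The markers of oligodendrocytes, the main source of transferrin in the parenchyma, fell in 10 of 10 cases with a median of −3.01. Their summed level lay between 2413 and 2535 CPM before and between 191 and 197 CPM after IP, and none of them was at 0.

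Slc40a1 had 11.8 and 18.1 CPM in the inputs and 1.72 and 2.61 after IP, from 16 and 26 counts, a log2 change of −2.35 (SE 0.32, adjusted p = 0.000178). Its log2 ratio of IP to input was −2.35 in each of the mice. The marker lists of the other glia and of endothelium fell as well. Astrocyte markers fell in 7 of 7 cases with a median of −4.27 on CDS, from sums of 2306 to 2372 CPM to sums of 196 to 229. On exons their median was −3.01. Microglia markers fell in 9 of 10 cases (median −3.18, from 743 to 745 CPM down to 83.6 to 93.5), and endothelial markers in 10 of 10 (median −3.20, from 405 to 455 CPM down to 35.6 to 45.4).

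Of the remaining lists, OPC markers were lower in 5 of 5 cases (median −3.23, sums of 169 to 186 CPM before and 9.52 to 12.4 after IP) and inhibitory neuron markers in 6 of 6 (median −1.99, 974 to 997 CPM before and 147 to 214 after IP). Excitatory neuron markers were higher in 5 and lower in 2 of 7 cases on CDS (median 0.82). On exons they were higher in 6, lower in 0 and not called in 1 (median 0.90). Only 1 of 7 choroid plexus markers was tested and it was lower (−2.51, with sums of 18.0 to 77.4 CPM before and 5.05 to 10.8 after IP, and Otx2 at 0 after IP). Of the blood list only Alas2 was tested (−1.33), and the 4 globin genes in the table were listed at 0 in every library. The part of each cell type in the values of the iron genes was not tested.

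Tfrc and Ireb2 gave different answers in the 2 count tables. Tfrc had 104 and 170 CPM on CDS in the inputs and 17.6 and 24.1 after IP, a log2 change of −2.28 (SE 0.25, adjusted p = 4.42e-05). On exons, which add the UTRs to the CDS, the log2 change was −0.71 (SE 0.32, adjusted p = 0.093). Only with the mouse as a block did it pass (−0.73, adjusted p = 5.29e-14). That fit was added after the data were seen, and it too holds only 2 mice. Per mouse the log2 ratio of IP to input on exons was −0.81 (mouse E) and −0.65 (mouse F). Ireb2 fell from 64.1 and 68.8 CPM to 11.0 and 11.3 on CDS, by a log2 value of −2.14 (SE 0.15, adjusted p = 4.36e-06), and by −0.63 on exons (SE 0.10, adjusted p = 0.0021). On exons 69.4% of 13254 genes passed, 33.7% higher and 35.7% lower.

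The tables differ by the counts on exons outside the CDS. For Tfrc these went from 1639 before to 1078 after IP in mouse E and from 3542 to 2363 in mouse F, whereas the CDS counts fell from 1308 to 164 and from 2647 to 240. After scaling, the counts outside the CDS differed between IP and input by −0.17 (mouse E) and 0.013 (mouse F) on the log2 scale. For Ireb2 they differed by 0.039 and −0.0087, from 1019 and 1513 counts before and 776 and 994 after IP. With the scaling of the exon counts, the exons outside the CDS were thus about as frequent after IP as before it in both genes. On this scale the fall lay in the CDS. No all-gene value is given for counts outside the CDS, so the place of these genes among all genes there cannot be stated. Exon counts per CDS count rose in the median gene as well, as given below. Slc11a2 and Aco1 had values outside the CDS of 0.0085 to 0.29, while those of Trf fell with its CDS (−2.68 and −2.57).

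Exon counts per CDS count restate this from the same counts. In Tfrc there were 2.25 and 2.34 before and 7.57 and 10.8 after IP, and in Ireb2 2.26 and 2.41 against 8.61 and 9.80. The RNA-Seq libraries of mice A to D gave 2.51 to 2.71 for Tfrc and 2.65 to 2.97 for Ireb2, near the inputs. The median of all 10050 genes with at least 37 CDS counts in each RNA-Seq library rose as well, from 1.45 and 1.47 to 1.78 and 1.91. On the log2 scale the rise was 1.98 for both Tfrc and Ireb2 and 0.29 for the median gene, and 98.2% and 98.1% of genes rose less. Slc11a2 rose by 0.71 and Slc40a1 by 0.56, while Fth1, Ftl1 and Trf moved by −0.013, −0.093 and 0.020. Both IP libraries showed this shift, and its part in the IP values was not tested.

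**Figure D4:**
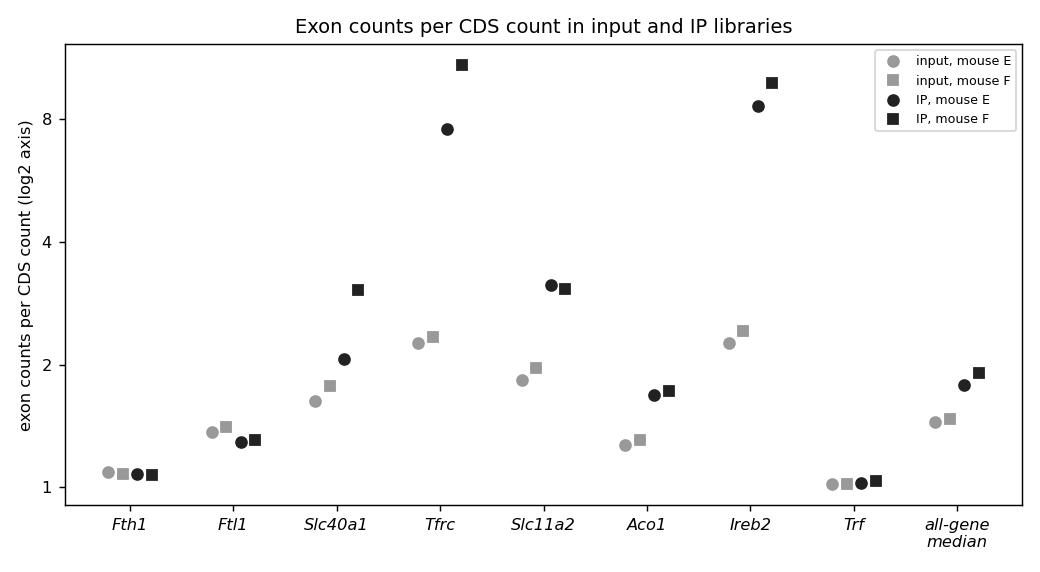
Exon counts per CDS count (log2 axis) of each gene in the input (grey) and IP (black) libraries of mice E and F, with the median of all genes at the right. In Tfrc and Ireb2 the IP libraries lie at 7.57 to 10.8 and the inputs at 2.25 to 2.41.

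Slc11a2 and Aco1 fell less, and in both tables. Slc11a2 had 62.8 and 60.6 CPM on CDS in the inputs and 26.2 and 29.3 after IP, with a log2 change of −0.72 (SE 0.14, adjusted p = 0.00117) on CDS and −0.47 (adjusted p = 0.00441) on exons. Aco1 had 48.1 and 50.1 CPM in the inputs and 22.7 and 27.2 after IP, with −0.54 (SE 0.15, adjusted p = 0.00914) and −0.60 (adjusted p = 0.0037). Of the mRNAs for iron regulatory proteins, that of IRP1 thus differed little between the tables and that of IRP2 much.

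On CDS the log2 changes of the ferritins were nearer to 0 than those of the other 6 genes. On exons the value of Fth1 (−0.74) was near that of Tfrc (−0.71, SE 0.32) and lay below those of Ireb2, Aco1 and Slc11a2. Ftl1 had 263 and 229 CPM in the inputs and 263 and 253 after IP, a log2 change of 0.50 after TMM scaling (SE 0.12, adjusted p = 0.00347). This rise was lost with total counts (0.068, adjusted p = 0.604) and on exons (−0.048, adjusted p = 0.718), so no direction can be given for Ftl1. Fth1 had 2200 and 2094 CPM in the inputs and 1271 and 1369 after IP, a log2 change of −0.26 (SE 0.093, adjusted p = 0.0282). Fth1 lay below 0 in every scaling and table fitted to both mice, from −0.20 to −0.74, but it did not pass with DESeq2 (adjusted p = 0.115) or with genes of at least 10 counts admitted (adjusted p = 0.098).

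The ratio of the heavy to the light subunit, which no scaling touches, was lower in IP. The log2 ratio of Fth1 to Ftl1 counts on CDS was 3.07 and 3.19 before and 2.27 and 2.44 after IP. The differences, IP minus input, were −0.79 (mouse E) and −0.75 (mouse F), and on exons −0.73 and −0.66. The ratio of counts says nothing about which subunit was more abundant, since the genes differ in length, but its change does not depend on length. With 2 mice this change was given as a description, without a test of its own.

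**Figure D5:**
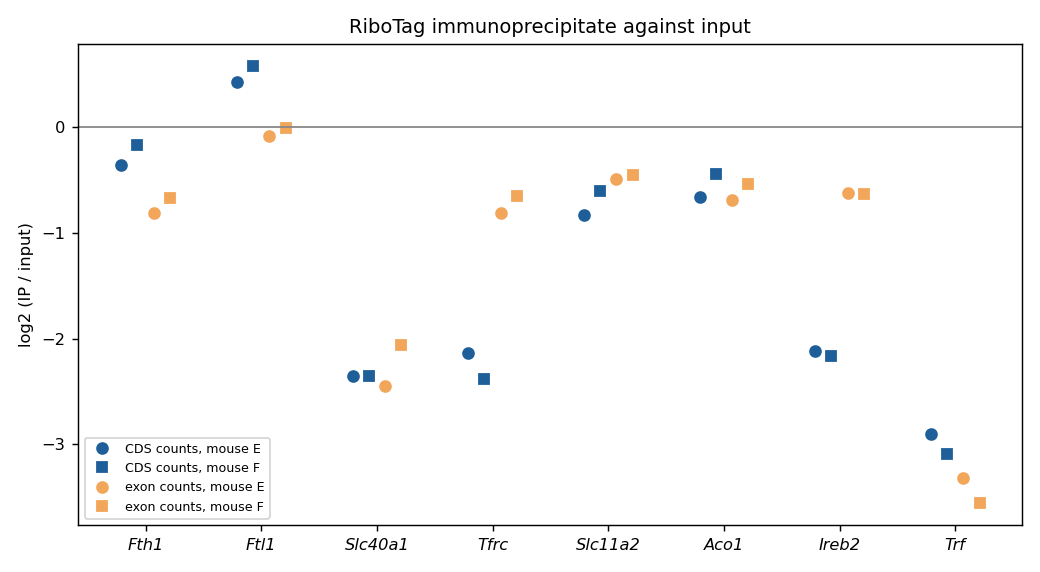
Log2 ratio of IP to input (TMM-scaled counts) of each gene in mice E and F, on CDS (blue) and on exons (orange). Trf lies lowest with both tables, Tfrc and Ireb2 lie near −2 on CDS and between −0.81 and −0.63 on exons, and Ftl1 lies at 0.43 and 0.58 on CDS and at −0.082 and −0.0090 on exons.

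Beyond the 8 genes, 69 further genes of iron biology were examined, of which 67 were in the CDS table. In vehicle mice 16 of the 56 tested had a higher and 20 a lower footprint level than RNA level, where 37.1% of all genes were higher and 36.7% lower. Their median log2 TE was −0.14, and that of all genes in the same test 0.0051. Among other mRNAs reported to hold an IRE, 3 of 4 tested were lower and none higher. Among these were the erythroid heme enzyme Alas2 (−1.02, adjusted p = 0.0197), with a 5′ element, and the kinase Cdc42bpa (−1.06, adjusted p = 3.85e-09), with a 3′ element. Alas2 was scarce, with 1.76 to 3.89 CPM of footprints in vehicle mice, too few counts for the test of footprint change. Epas1, the oxygen-regulated factor HIF-2α with a 5′ element, was at −0.11 (adjusted p = 0.375), and Cdc14a was too scarce.

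Genes of iron uptake, export and systemic control were higher in 2 and lower in 5 of 11 cases, genes of storage, iron chaperones and IRP turnover higher in 2 of 4, genes of heme metabolism higher in 5 and lower in 2 of 13, and genes of iron-sulfur cluster assembly higher in 7 and lower in 10 of 24. The lowest values were those of Fdx1l (−2.65), a ferredoxin of iron-sulfur cluster assembly, Ppox (−2.51), an enzyme late in heme synthesis, and Slc25a37 (−2.39), the mitochondrial iron importer mitoferrin 1. Among the highest were those of Slc39a14 (1.33), a metal importer, and Steap2 (1.18), a ferrireductase. By these values ferritin was not the lowest of the iron genes, nor Tfrc the highest.

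After AZD-8055, none of the other iron genes passed in edgeR or in DESeq2. This held for 56 genes in TE, 58 in RNA and 48 in footprints, against 0.865%, 0.148% and 1.01% of all genes called. An unadjusted p under 0.05 was reached by 2, 3 and 5 of them, and by 6.76%, 8.24% and 12.8% of all genes. DESeq2 gave no adjusted p for 18 and 22 of these genes in TE and footprints. The median change in TE was 0.011.

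In the IP, 36 of 57 other iron genes were higher and 17 lower on CDS, where 36.5% of all genes were higher and 39.0% lower. The lists are described by their counts, and differences between them were not tested. Iron-sulfur cluster genes were higher in 20 and lower in 3 of 24 cases (median 0.96), and heme genes higher in 10 and lower in 1 of 13 (median 0.84). Genes of iron uptake and export were higher in 3 and lower in 8 of 12 cases (median −1.52), other IRE mRNAs higher in 1 and lower in 3 of 4, and storage and chaperone genes higher in 2 and lower in 2 of 4. On exons, where 33.7% of all genes were higher and 35.7% lower, the counts were 17 and 4 of 24 for iron-sulfur genes, 10 and 1 of 13 for heme genes, 2 and 9 of 15 for uptake and export, 1 and 4 of 5 for other IRE mRNAs and 1 and 2 of 4 for storage and chaperones. On CDS the highest were Fdx1l (1.98), Glrx5 (1.96) and Nfu1 (1.95), all of mitochondrial iron-sulfur assembly. The lowest were Heph (−3.92) and Cp (−3.60), the ferroxidases that work with ferroportin, and Steap3 (−3.66), a ferrireductase of the transferrin cycle.

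For each gene the 3 genes with the most similar pattern over the 12 libraries were sought among 12013 others, by Pearson's r of log2 CPM. The points share 3 kinds of library (footprints, IP and whole-tissue RNA), and differ in depth, so r is given as a description. Trf was followed by Gpr37 (0.998), a receptor of oligodendrocytes, Cd82 (0.997) and Capn2 (0.996). Ireb2 had among its nearest Trappc8 (0.995) and Xpo4 (0.994), and Tfrc was followed by Cdc27 (0.990), Zfp369 (0.990) and Lpgat1 (0.986). For Fth1 these were Aida (0.994), Nrd1 (0.993) and Prkrir (0.991), and for Ftl1 Adipor1 (0.993), Maz (0.987) and Map3k11 (0.986). Slc40a1 was followed by Atp2c1 (0.971), Eogt (0.969) and Slc7a6 (0.967), Slc11a2 by Map3k9 (0.978), 5830418K08Rik (0.976) and Dopey2 (0.975), and Aco1 by Mavs (0.978), Ap5m1 (0.973) and Mospd1 (0.970).

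Among the 8 genes themselves, Fth1 and Ftl1 had r of 0.97 and Tfrc and Ireb2 0.95. Tfrc ran against the ferritins, with r of −0.33 to Fth1 and −0.53 to Ftl1. Slc11a2 was closer to Fth1 (0.71) than to Tfrc (0.34), and Slc40a1 was closest to Slc11a2 (0.84). These 12 points are the same libraries from which the TE and IP values above were taken.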

How the data were processed

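Ribosome profiling (4 libraries) and poly(A)-selected RNA-Seq (8 libraries) were made from 6 mice. Per the authors' methods, footprint reads were trimmed, clipped of poly(A), cleared of rRNA with Bowtie2 and aligned with TopHat2, and reads were counted with HTSeq. The submitters' processing notes name mm10. The authors deposited raw counts per gene, counted on CDS in all 12 libraries and also on exons in the 8 RNA-Seq libraries. Every sample column was mapped to a sample by its label.

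Counts were tested with edgeR 4.0.16 in R 4.3.3 (TMM, quasi-likelihood F-test, Benjamini-Hochberg over all tested genes, adjusted p under 0.05) on genes that averaged 37 counts or more over the libraries of a fit. Baseline TE, TE after AZD-8055 and its change came from 1 fit of 4 groups (8 libraries), and RNA, footprints and IP from 4 libraries each. RiboDiff, used in the study, was replaced by the interaction term. TE per mouse was the ratio of counts over DESeq2 1.42.0 size factors, with at least 75 counts per library kind in 2 mice for percentiles. IP values per mouse used TMM scaling. CPM were computed from CDS totals and serve as levels within a gene, since no CDS lengths were at hand. The test code was run on simulated counts with known changes in a small part of the genes and the same dispersion for every gene. Far more genes were called in TE and IP, so that run does not check the scaling or the spread of those tests. Python 3.11.15, numpy 2.4.6, pandas 2.3.3 and matplotlib 3.10.9 were used.

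Libraries with the same mouse letter come from 1 animal, so the letters pair them. The differences between mice correlated across genes at 0.24 (A and B, RNA and footprints), 0.20 (C and D) and 0.48 (E and F, input and IP). Except where the mouse was used as a block, the fits did not use this pairing. Their p-values rest on an estimate of spread shared by all groups of a fit, with 2 mice per group.

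The genes and lists were chosen with earlier results of these data known. Besides the 8 genes, the text names, from the other iron lists, the 3 highest and 3 lowest called values in baseline TE and IP, any gene called after AZD-8055, and the 3 most similar genes of each member. Some genes that this rule selects are not reported here by name. Alternatives were DESeq2, total counts, a mean of 10 counts, a required 2-fold change, the mouse as a block, exon counts and leaving out each mouse. Gene positions are from RefSeq on GRCm38.p6, the assembly that mm10 names.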

Additional observations from a re-analysis of the deposited data

How the results depend on the processing

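Requiring a fold change over 2 reduced the members called from 6 to 3 in baseline TE, from 6 to 3 in the AZD-8055 mice and from 8 to 4 in the IP. Over all genes it left 3640, 3451 and 5680 calls for these comparisons, and 36, 4 and 36 for the changes after AZD-8055 in TE, RNA and footprints. The RNA change had 18 calls with edgeR, 28 with DESeq2 and 29 with total counts. On exon counts Ftl1 in the IP turned to −0.048, and to −0.046 with the mouse as a block, an alternative added after the data were seen. Leaving out each mouse gave 3 to 6 members called for TE in AZD-8055 mice, 0 to 1 for the TE change and 0 to 2 for the footprint change. Over all genes it gave 56 to 77 calls for the TE change, 13 to 36 for RNA and 64 to 837 for footprints. The cause of these differences was not tested. In the IP, leaving out a mouse gave values without a test, from −0.36 to −0.17 for Fth1. With the mouse as a block, 144 genes in place of 102 passed in the TE change, and no call of a member on CDS counts changed in baseline TE (8980 genes in all), in the AZD-8055 mice (8579), in the TE change or in the IP (10006). Total counts in place of TMM shifted the IP by −0.44 and the TE in AZD-8055 mice by −0.12 for all genes, and the IP then gave 3036 higher and 6257 lower genes in place of 4455 and 4766. Slc40a1 rested on few footprint and IP counts, and its TE change was −1.20 without mouse C and −0.015 without mouse D.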
